A study of Mus musculus with 30 samples.

Results

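Jarid2 occupancy was compared between mouse embryonic stem cells with a control hairpin and cells depleted of EPOP, using 1 list of ChIP-seq peaks for each condition. The members were all peaks of both lists, 2641 in the control and 3665 upon EPOP knock-down, or 6306 of the 240359 peaks in the 20 lists of the series. Control peaks that shared 1 bp or more with the knock-down list were called kept, and the rest missing. Likewise, knock-down peaks were called matched where they met the control list and new where they did not.

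Polycomb repressive complex 2 (PRC2) places methyl groups on lysine 27 of histone H3 and keeps developmental genes silent in embryonic stem cells. Suz12 is a core subunit that every form of the complex carries. Jarid2 is an accessory subunit that binds nucleosomes and DNA, stimulates the enzyme and helps to recruit it to CpG-rich promoters. EPOP, also called C17orf96, is another accessory subunit, and it connects PRC2 with Elongin B and Elongin C. Jarid2 and EPOP are known from biochemical work to sit in alternative forms of PRC2, so Jarid2 binding without EPOP bears on how these forms share chromatin.

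All cells were E14Tg2A, a male mouse embryonic stem cell line, grown without feeder cells in serum with LIF. EPOP was depleted by a short hairpin RNA delivered with lentivirus and selected with puromycin, and the control list is named as that of a control hairpin. The model is therefore a knock-down, not a knockout, in 1 cell line, and each condition had 1 Jarid2 library, made with the same antibody. The headers name the control Jarid2 list sh ct and the knock-down list sh 4, a name shared by the EPOP replicate 2, Suz12 and H3K4me3 lists upon EPOP knock-down, whereas the H3K27me3 list upon knock-down is named SH3 and the Elongin B lists are named for C17.

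The EPOP lists named sh ct and sh 4 held 6547 and 818 peaks. Of the kept Jarid2 peaks, 97.0% lay on an EPOP region found in both control lists. In the knock-down lists, 19.3% of the kept Jarid2 peaks overlapped an EPOP peak of replicate 2, and 2.50% one of replicate 1, whose labels conflict over whether it is an EPOP or an IgG library. Read depth is not known for any list, so all values below concern whether a peak was called, how wide it was and how it ranked by score within its own list. Neither condition has a replicate, so no difference between them has a replicate check and no test was made. All 95% intervals given with a share are Wilson intervals that cover only the counting of regions.

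The knock-down list was longer and its peaks were wider. Jarid2 peaks covered 5.78 Mb in the control and 8.84 Mb upon EPOP knock-down, 1.53 times as much, while the number of peaks was 1.39 times as high. The median width was 1838 bp in the control (quartiles 1356 and 2503) and 1987 bp upon knock-down (quartiles 1496 and 2750). Peaks over 5000 bp numbered 103 in the control and 209 upon knock-down, where they made up 12.4% and 17.3% of the covered length.

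Nearly every control peak was found again, and those not found again were weak. Kept peaks numbered 2559 (96.9%, 95% interval 96.2 to 97.5), missing peaks 82 (3.1%, 2.51 to 3.84) and new peaks 1225 of 3665 (33.4%, 31.9 to 35.0). Scores are the authors' own peak scores, which start at 50 in these lists. All 82 missing peaks scored below the control list's median of 175, with a median of 59.1 and a highest score of 114, against a median of 186 for kept peaks. In decile 1 of control score, the weakest, 51 of 265 peaks were missing (19.2%), in decile 2 21 of 264 (7.95%), and in deciles 3 and 4 5 of 264 each (1.89%). Deciles 5 to 10 held none, with an upper 95% bound of 1.43% in each.

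New peaks filled the weaker part of the knock-down list. Their median score was 89.2, against 432 for matched peaks of the same list, and 94.0% of them scored below the list's median of 238. They made up 86.4% of decile 1 of knock-down score, 27.8% of decile 5 and 4.09% of decile 7, and 1 new peak lay in decile 8. The highest-scoring new peak, at 502, ranked at percentile 70.3 of its list. Kept calls did not hinge on the 1 bp limit, since the smallest overlap of a kept peak was 461 bp. The new peak nearest to a control peak lay 12 bp from it, and the missing peak nearest to a knock-down peak lay 93 bp from it. When gaps of up to 1000 bp counted as overlap, the kept share was 97.2% and the new share 32.0%.

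**Figure D1:**
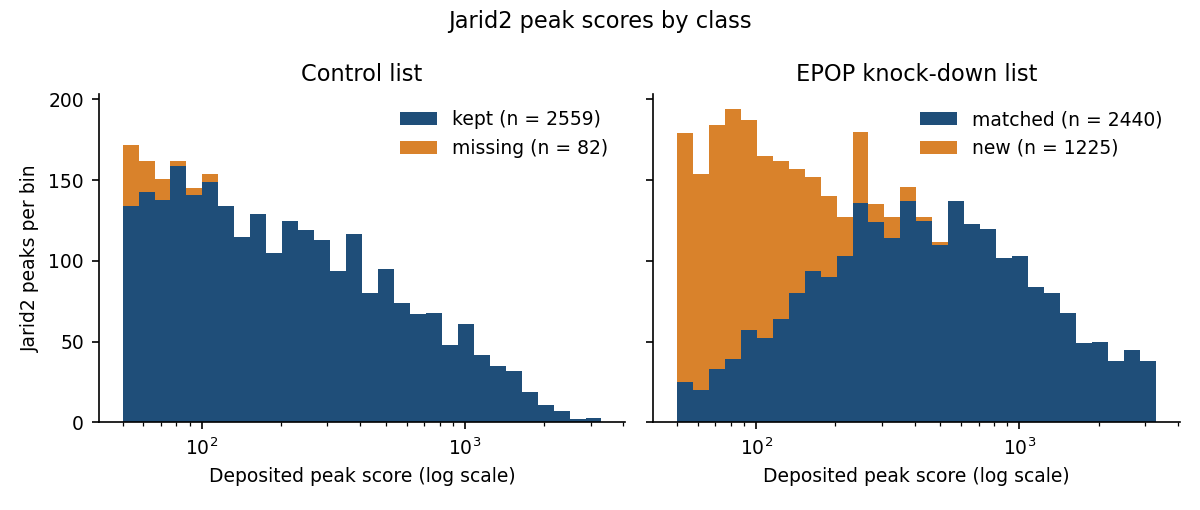
Number of Jarid2 peaks per bin of the deposited score (log scale) in the control list (left) and the EPOP knock-down list (right), with kept or matched peaks in blue and missing or new peaks in orange, stacked. The 82 missing peaks end at a score of 114, and the 1225 new peaks end at 502 while matched peaks reach 3223.

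The order of the peaks was largely shared between the lists. Over 2279 pairs of 1 control peak and 1 knock-down peak, Spearman's rho of the scores was 0.88, a description across peaks that share their 2 libraries. Of the 228 control peaks in the top decile of these pairs, 186 (81.6%) were also in the top decile upon knock-down.

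The 5 kept peaks with the highest control scores were broad and lay on regions of Suz12, EPOP, H3K27me3, H3K4me3 and Elongin B alike. In mm9 coordinates, the peak on chromosome 9 from 62989094 to 62998459 was 9366 bp wide in the control and lay in a knock-down peak of 14076 bp. The peak on chromosome 5 from 33772486 to 33778598 measured 6113 bp in the control and 6767 bp upon knock-down. On chromosome 2, the peak from 38202468 to 38213414 measured 10947 bp and 11703 bp. The widths were 5383 bp and 5436 bp on chromosome 16 from 94083104 to 94088486, and 7602 bp and 8233 bp on chromosome 9 from 55387072 to 55394673. These 5 regions held a peak in 14 to 16 of the 18 lists used here. No gene annotation of the build was at hand, so no gene is assigned to any of them.

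Kept Jarid2 peaks were wider upon EPOP knock-down, and both edges moved outward by about the same distance. Over the 2559 kept peaks the median log2 ratio of knock-down to control width was 0.31 (quartiles 0.12 and 0.58), and the median difference was 438 bp (quartiles 186 and 881.5). Of the kept peaks, 25% were wider by 1.5-fold or more and 0.313% (8 peaks) were narrower by as much. At the 2279 pairs of 1 peak to 1 peak the median log2 ratio was 0.26. There the lower-coordinate edge shifted outward by a median of 164 bp and the higher-coordinate edge by 170 bp. Both edges shifted outward in 65.6% of the pairs and both inward in 4.70%.

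**Figure D2:**
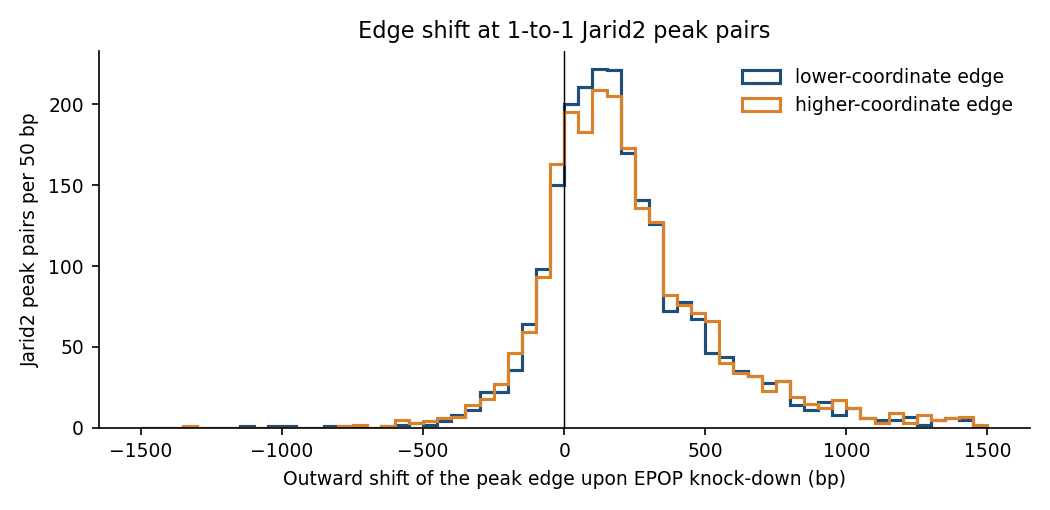
Shift of each peak edge (bp, positive outward) from the control to the EPOP knock-down list at 2279 pairs of 1 control and 1 knock-down Jarid2 peak, in bins of 50 bp, with 26 lower and 24 higher edges beyond 1500 bp not drawn. Both distributions peak to the right of 0 and nearly coincide, with medians of 164 and 170 bp.

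Part of the widening came from neighbouring peaks that were joined. In the knock-down list 128 peaks spanned 2 or more control peaks, up to 4, and these held 271 control peaks. By contrast, 24 control peaks were split over several knock-down peaks. The largest ratios among the wider control peaks arose at long knock-down peaks that also overlapped other control peaks. Such a knock-down peak was counted in full for each control peak. Each width pair below thus sets a joined peak against only a part of the control peaks that it met. On chromosome 11 a control peak of 2082 bp (85642701 to 85644782) lay in a knock-down peak of 16182 bp, and on chromosome 17 one of 2675 bp (86006434 to 86009108) met a knock-down peak of 19632 bp. On chromosome 4 a peak of 2143 bp (139383236 to 139385378) lay in one of 14719 bp, and on chromosome 2 a peak of 2292 bp (9794987 to 9797278) met one of 12039 bp. A control peak of 2790 bp on chromosome 9 (62985869 to 62988658) lay in the same 14076 bp knock-down peak as the highest-scoring kept peak. The first 4 of these had a Suz12 score of 3100 in replicate 2 of the control.

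The peaks that narrowed most did so by less. On chromosome 2 a peak of 2395 bp (136939978 to 136942372) met a knock-down peak of 1380 bp, a log2 ratio of −0.80. On chromosome 11 the peak from 101033101 to 101036282 measured 3182 bp and 1968 bp, and on chromosome 10 the one from 82798715 to 82800956 measured 2242 bp and 1429 bp. Both of the others were on chromosome 4, with 3138 bp and 2014 bp (135699685 to 135702822) and 3486 bp and 2292 bp (46462939 to 46466424). The last of these lay on no Suz12 or EPOP region, unlike the other 4.

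Widening was larger in relative terms at weaker and narrower peaks. The median log2 ratio was 0.46 in quartile group 1 of control score, 0.32 and 0.29 in quartile groups 2 and 3, and 0.19 in quartile group 4, the strongest. The share of peaks that were wider at all was similar, from 86.9% to 91.1%. By control width, the median was 0.50 in the narrowest quartile group and 0.17 in the widest. Control width is the divisor of the ratio, so grouping by it favours higher ratios in the narrowest group by construction. The score groups share this limit in part, with median control widths of 1248.5 bp in group 1 and 3253.5 bp in group 4. How much of these differences it accounts for was not tested.

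Kept Jarid2 peaks outside EPOP regions changed less in width. The 77 EPOP-free kept peaks had a median log2 width ratio of 0.027 (quartiles −0.068 and 0.27), and 58.4% of them were wider. The 2482 EPOP-bound ones had a median of 0.31 (0.13 and 0.59), and 90.2% were wider. The gap was also present at like scores: in quartile group 1 of control score the medians were 0.48 for 602 EPOP-bound and 0.029 for 38 EPOP-free peaks, and in quartile group 2 they were 0.33 for 613 and 0.087 for 27. These classes differed in more than EPOP. Of the 77 EPOP-free kept peaks, 35.1% lay on a Suz12 region, against 99.96% of the EPOP-bound ones, and 26.0% overlapped an Elongin B peak that was present upon EPOP knock-down, against 0.201%. At the start of chromosome 9, 9 kept peaks lay in a stretch that held a peak in 17 of the 18 lists. Such peaks were not set apart from either class. The part of these features in the width difference was not tested. The 27 peaks on Suz12 without EPOP had a median of 0.0028 and the 50 on neither had 0.039.

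Kept peaks with Elongin B widened less over all, but not once peaks of like score were compared. The 808 kept peaks on an Elongin B region had a median log2 width ratio of 0.24 and the other 1751 one of 0.33, and the former were stronger, with a median control score of 549 against 123. With and without Elongin B, the medians were 0.19 and 0.18 in quartile group 4 of control score (509 and 131 peaks) and 0.33 and 0.28 in group 3 (205 and 434 peaks). In group 2 they were 0.44 and 0.31 (68 and 572 peaks), with quartiles that overlapped in each group.

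The size of these changes was within the range seen between control lists of other targets, but the upper end of that range rested on few pairs. For the median width ratio the Suz12 pair alone had a larger difference, and for peak number the EPOP pair alone. Suz12 control replicate 1 had wider peaks than replicate 2, with a median log2 ratio of 0.50, and 43.1% of kept peaks were wider by 1.5-fold or more. For EPOP the control lists differed by 0.24 and for H3K4me3 by 0.18, and for Elongin B by 0.042. The EPOP control lists differed in peak number by 1.69 times, the H3K4me3 lists by 1.22 times and the Elongin B lists by 1.19 times, and the Suz12 control lists held 6834 and 7972 peaks, a ratio of 0.857. Jarid2 upon knock-down, at 1.39 times, thus differed by more than the control lists of H3K4me3, Elongin B and Suz12 and by less than those of EPOP. The share of peaks in the second list that were absent from the first was 46.8% for EPOP, 23.7% for H3K4me3, 36.0% for Elongin B and 16.8% for Suz12, against 33.4% for Jarid2. Of kept peaks, Jarid2 had 96.9%, and these pairs of control lists 74.7% to 97.0%. The 2 control lists of Suz12, and likewise those of H3K4me3, are named sh ct and si ct in their headers. Of the EPOP control lists, replicate 2 is named sh ct and replicate 1 carries no such name. Only the Elongin B control lists are both named sh ct. For Suz12, H3K4me3 and EPOP, a difference between the control lists thus need not be replicate spread alone.

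For Suz12 upon EPOP knock-down, the median log2 ratio of widths was 0.16 to the list named sh ct and −0.25 to the other control list. H3K27me3 had 0.42 and H3K4me3, against its sh ct list, 0.12. At the kept Jarid2 peaks themselves, the overlapping Suz12 peaks had a ratio of 0.12 to replicate 2 and −0.34 to replicate 1, the H3K27me3 peaks one of 0.30 and the H3K4me3 peaks one of 0.059. Depth, which was not known for these lists, and the knock-down cannot be told apart with 1 Jarid2 list per condition.

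**Figure D3:**
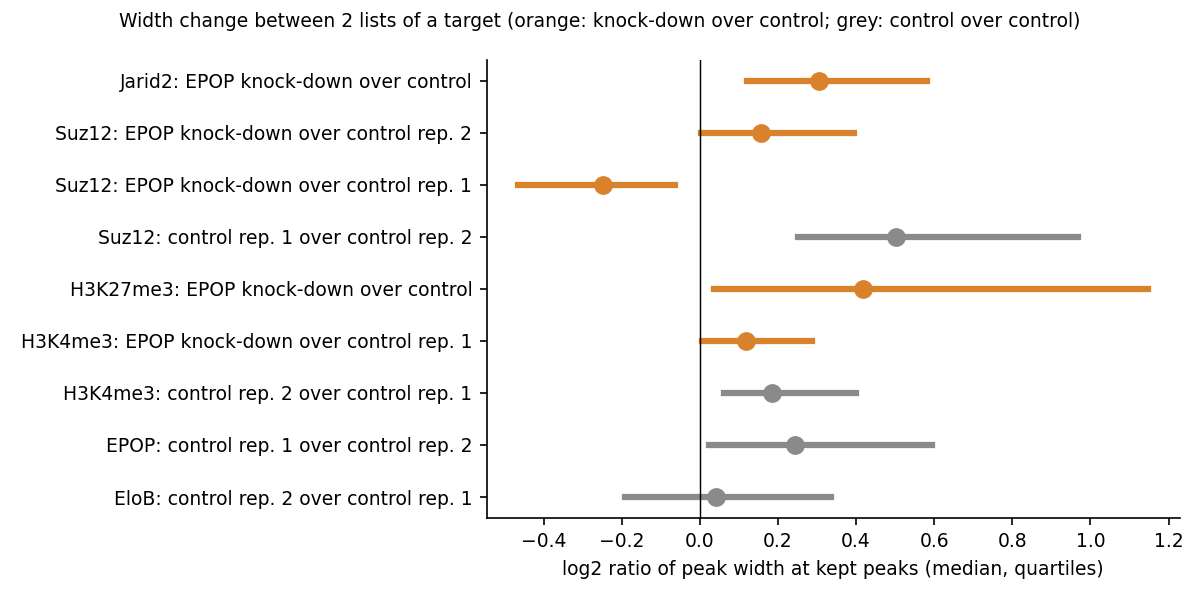
Median (dot) and quartiles (bar) of the log2 ratio of peak width at kept peaks for 9 pairs of lists, with knock-down over control in orange and control over control in grey. The Jarid2 median of 0.31 lies below the 0.50 between the Suz12 control lists and above the 0.042 to 0.24 between those of Elongin B, H3K4me3 and EPOP.

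Most new Jarid2 peaks lay more than 100 kb from any control Jarid2 peak, and most were on regions that already carried PRC2. No distance of other regions was computed for comparison. The median distance from a new peak to the nearest control peak was 206 kb, with 10.3% (95% interval 8.71 to 12.1) within 5 kb and 34.4% within 100 kb. Of the 1155 new peaks on a Suz12 region, 1066 (92.3%) were on a region that held no control Jarid2 peak and 89 on one that held a Jarid2 peak elsewhere along it. The definition of new peaks, which lie off control peaks, favours the former. New peaks were narrower than matched ones, with a median of 1463 bp against 2358.5 bp.

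Most new peaks, like most kept ones, lay on PRC2 regions, but at lower shares, and few lay on Elongin B. Suz12 regions underlay 94.3% of new and 98.0% of kept peaks, EPOP regions 90.0% and 97.0%, and H3K27me3 regions 84.0% and 95.3%. Suz12, EPOP, H3K27me3 and H3K4me3 regions together underlay 78.0% of the new peaks (75.6 to 80.3), 90.5% of the kept ones (89.3 to 91.6) and 37.8% of the missing ones (28.1 to 48.6). A further 8.98% of the new peaks lay on Suz12 and EPOP without H3K27me3, against 2.89% of the kept ones. H3K4me3, a mark of promoters, was overlapped by 1176 of the 1225 new peaks and by 2446 of the 2559 kept ones (95.6%). Elongin B regions underlay 1.14% of the new peaks (0.682 to 1.91) and 31.6% of the kept ones (29.8 to 33.4). New peaks lay off control Jarid2 peaks by definition, and 726 of the 737 Suz12 regions with Elongin B carried such a peak. The definition itself thus left little room for Elongin B under new peaks.

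The difference in Elongin B was smaller in percentage points between peaks of like knock-down score. New peaks had the lower share in each of the 4 score ranges compared, and the limit set by their definition held there too. Between scores of 50 and 75, Elongin B lay under 1 of 431 new peaks (0.232%, 0.0410 to 1.30) and under 2 of 78 matched ones (2.56%, 0.706 to 8.88). Between 75 and 100 the counts were 2 of 291 (0.687%, 0.189 to 2.47) and 6 of 93 (6.45%, 2.99 to 13.4), with intervals that did not overlap. Between scores of 150 and 250, they were 3 of 167 (1.80%, 0.613 to 5.15) and 14 of 374 (3.74%, 2.24 to 6.18). Between 100 and 150 the counts were 2 of 280 (0.714%) and 6 of 187 (3.21%). The other targets did not share 1 pattern. Suz12 regions underlay more of the new than of the matched peaks in all 4 ranges, from 88.2% of 431 (84.8 to 90.9) against 74.4% of 78 (63.7 to 82.7) between 50 and 75 to 99.4% against 98.4% between 150 and 250. For EPOP the new peaks were higher up to 150, with 82.4% against 71.8% in the lowest range, and at 96.4% against 97.1% above it. For H3K27me3 they were higher below 100, with 77.3% against 66.7% in the lowest range, and lower above it, with 90.4% against 92.0% and then 89.8% against 95.7%.

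**Figure D4:**
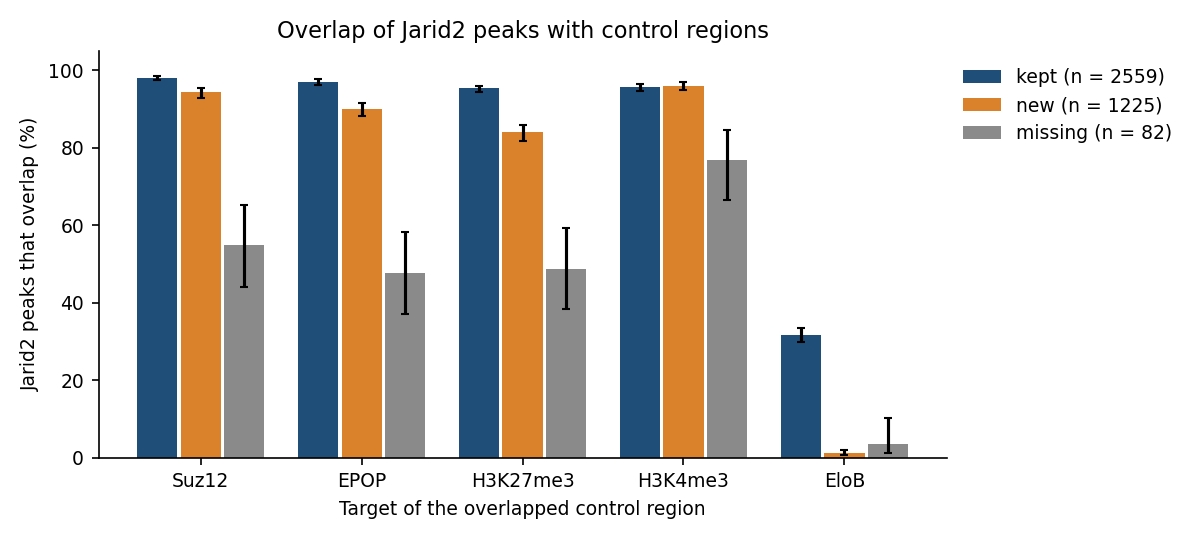
Share of kept, new and missing Jarid2 peaks that overlap a control region of each target (%), with Wilson 95% intervals as bars. New peaks stand at 94.3% on Suz12 and 1.14% on Elongin B, and missing peaks at 54.9% and 3.66%.

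Among the 5 new peaks with the highest scores, 2 lay on chromosome 8, from 124806249 to 124809344 (score 502) and from 124859102 to 124861803 (score 448), the former 51140 bp from the nearest control Jarid2 peak. The others were on chromosome 17 from 25568864 to 25571179 (score 493), on chromosome 16 from 15886335 to 15889075 (score 408) and on chromosome 9 from 40964065 to 40966248 (score 404). All 5 lay on Suz12, EPOP, H3K27me3 and H3K4me3 regions, and the first 3 by score also on Elongin B regions. Their Suz12 scores in control replicate 2 ran from 949 to 1991, well above the median of 403 over all Suz12 regions.

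In the knock-down lists of the other targets, 1176 of the 1225 new Jarid2 peaks overlapped a Suz12 peak and 88.6% (86.7 to 90.2) an H3K27me3 peak, against 84.0% (81.8 to 85.9) for H3K27me3 in the control. By site, 92 new Jarid2 peaks had an H3K27me3 peak upon knock-down alone and 36 in the control alone, and for kept Jarid2 peaks these numbers were 57 and 41. Suz12 was called at new peaks in both conditions in 1160 cases against replicate 2, in the control alone in 2 and upon knock-down alone in 16. The width of those Suz12 peaks had a median log2 ratio of 0.14 against replicate 2, the control list named sh ct. Against replicate 1, named si ct, it was −0.27, so the sign depended on the control list. At these sites replicate 1 itself had wider Suz12 peaks than replicate 2, with a median log2 ratio of 0.46.

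Missing Jarid2 peaks were a mixed group. Suz12 regions underlay 45 of the 82 (54.9%, 44.1 to 65.2) and EPOP regions 39 (47.6%, 37.1 to 58.2). H3K4me3 alone, without Suz12, EPOP or H3K27me3, underlay 24 (29.3%, 20.5 to 39.9), against 1.37% of kept peaks, and 10 lay on none of the 5 targets. Missing peaks scored no higher than 114 and were not compared with kept peaks of like score, so these shares are not matched for peak strength. The missing peaks with the highest scores were on chromosome 10 from 57351336 to 57353031 (score 114), on chromosome 9 from 3037577 to 3038539 (111) and on chromosome 8 from 59827541 to 59828632 (106). The next were on chromosome 8 from 77632422 to 77633980 (104) and on chromosome 14 from 49288245 to 49289328 (102). Of these 5, the one on chromosome 10 and the first on chromosome 8 lay on Suz12, EPOP, H3K27me3 and H3K4me3 regions, and the one on chromosome 14 on Suz12 and EPOP. The other 2 lay on no Suz12 or EPOP region. The chromosome 10 site still had a Suz12 peak upon knock-down, with a score of 673.

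Over the 5669 Suz12 regions found in both control lists, those that gained a Jarid2 peak far outnumbered those that lost one. Jarid2 was found at 2171 of them in the control (38.3%, 37.0 to 39.6) and at 3181 upon EPOP knock-down (56.1%, 54.8 to 57.4). Of the 3498 regions without Jarid2 in the control, 1047 gained a peak (29.9%, 28.4 to 31.5), and of the 2171 with Jarid2, 37 lost it (1.7%, 1.24 to 2.34). Where Jarid2 was found in both lists (2134 regions), it covered a median of 56.2% of the Suz12 region in the control and 70.0% upon knock-down, and 88.9% of these regions were covered further.

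The gain followed Suz12 strength closely. Suz12 regions were ordered by their highest score in control replicate 2 and divided into deciles. In decile 10, the strongest, all 566 regions carried Jarid2 in both lists. In decile 7 the share went from 53.8% (49.7 to 57.9) in the control to 95.4% (93.4 to 96.9) upon knock-down, in decile 6 from 27.2% to 76.4%, in decile 5 from 9.70% to 45.0% and in decile 4 from 4.94% to 27.3%. In decile 1 it was 1.23% (0.599 to 2.53) and 2.12% (1.21 to 3.66). With 20 bins in place of deciles, the share first passed 50% at Suz12 scores of 756 to 931 in the control and of 332 to 404 upon knock-down. Jarid2 was thus called down to weaker Suz12 regions in the knock-down list. Losses lay toward the weak end: 9 of 55 Jarid2-carrying regions lost the peak in decile 5, 10 of 154 in decile 6 and 2 of 305 in decile 7.

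The gain was higher at Suz12 regions with EPOP than at those without it, and the size of that difference depended on how Suz12 strength was matched. Without regard to strength, 994 of 2678 EPOP-bound regions gained Jarid2 (37.1%, 35.3 to 39.0) and 53 of 820 EPOP-free ones (6.46%, 4.98 to 8.36). The EPOP-free value was 3.07% without Suz12 control replicate 1, 3.57% without replicate 2, 2.32% with Suz12 peaks of either list and 2.17% when an EPOP peak of either control list counted as bound. The median Suz12 score was 537 over EPOP-bound and 107 over EPOP-free regions. With EPOP-bound regions weighted to the Suz12 deciles of the EPOP-free ones, the gain was 10.5% against 6.46%. It was 8.87% with deciles of the score in replicate 1 and 20.5% with deciles of Suz12 width.

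Within deciles, EPOP-bound regions gained Jarid2 more often in deciles 1, 2, 3, 5 and 7, and less often by small margins in deciles 4 and 6. In decile 1 the gain was 2.75% of 255 EPOP-bound regions (1.34 to 5.56) and 0.328% of 305 EPOP-free ones (0.0579 to 1.83). In decile 2 it was 5.07% of 335 (3.19 to 7.98) and 0.881% of 227 (0.242 to 3.15), with intervals that did not overlap. In decile 3, 11.6% of 405 EPOP-bound regions (8.84 to 15.1) and 6.67% of 150 EPOP-free ones (3.66 to 11.8) gained Jarid2, and in decile 4, 24.3% of 456 (20.6 to 28.5) and 26.5% of 83 (18.2 to 36.9). In decile 5 it was 42.8% of 470 (38.4 to 47.3) and 19.0% of 42 (9.98 to 33.3). Few EPOP-free regions without Jarid2 were left above that, with 5 of 7 gaining it in decile 6 and 5 of 6 in decile 7.

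**Figure D5:**
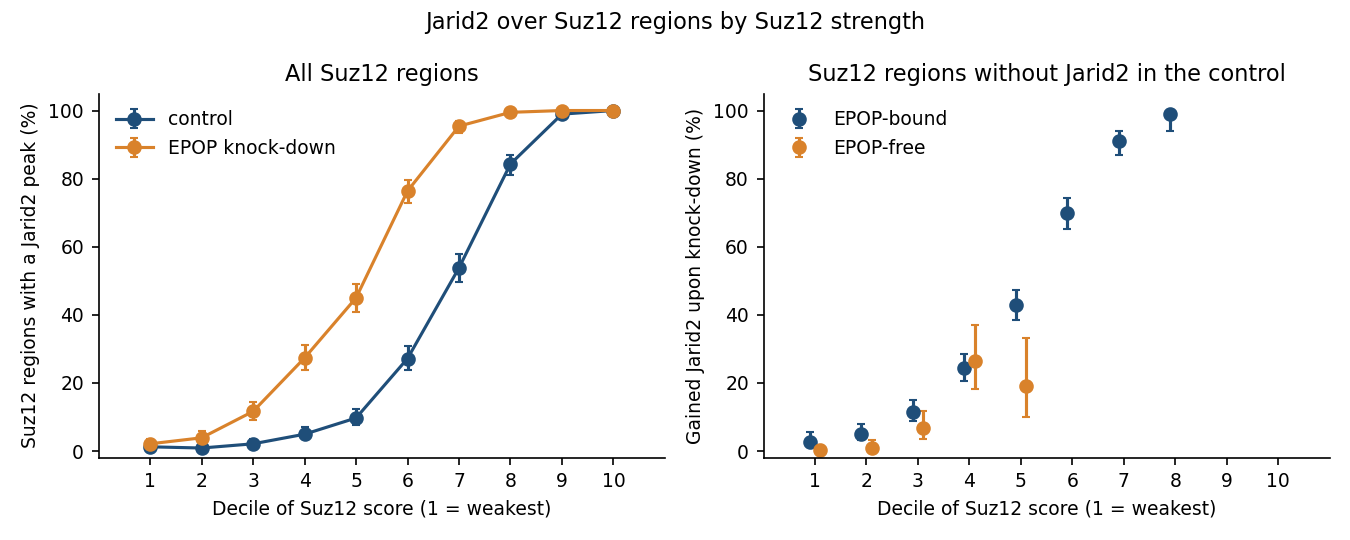
Left, share of Suz12 regions with a Jarid2 peak (%) by decile of Suz12 score in the control (blue) and EPOP knock-down (orange) lists. Right, share of Jarid2-free Suz12 regions that gained a Jarid2 peak (%), for EPOP-bound (blue) and EPOP-free (orange) regions in groups of 20 or more; bars are Wilson 95% intervals. The knock-down curve is shifted to weaker Suz12 regions, and the intervals of the 2 classes on the right overlap in deciles 1, 3 and 4 and part in deciles 2 and 5.

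Regions with and without H3K27me3 also lay closer within deciles than over all. Over all Jarid2-free Suz12 regions, 36.3% of the 2568 with H3K27me3 and 12.4% of the 930 without it gained Jarid2. In decile 5 the shares were 42.4% of 434 (37.8 to 47.1) and 32.1% of 78 (22.7 to 43.0), and in decile 6 70.1% of 378 (65.3 to 74.5) and 68.6% of 35 (52.0 to 81.4). Elongin B regions left little room for a gain, since 726 of the 737 Suz12 regions with Elongin B carried Jarid2 already in the control (98.5%, 97.3 to 99.2), and 9 of the other 11 gained it.

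Suz12 regions that gained Jarid2 also had a slightly larger knock-down to control ratio of Suz12 width than other regions of the same decile. The median log2 ratio of Suz12 width, knock-down to control replicate 2, was 0.20 in 133 gained and 0.12 in 406 other regions of decile 4. It was 0.17 in 209 and 0.086 in 303 regions of decile 5, and 0.12 in 289 and 0.087 in 124 of decile 6. The quartiles of the classes overlapped in each of these deciles, and over all deciles the medians were 0.14 and 0.15. These ratios are to replicate 2 alone, and at new Jarid2 peaks the ratio to replicate 1 was −0.27.

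The extent of the gain depended on how many peaks each list contributed. With the knock-down list limited to its 2641 highest-scoring peaks, as many as the control list holds, the lowest score left was 112 and 412 of the 1225 new peaks remained (15.6% of the shorter list). Jarid2 then lay on 41.7% of the Suz12 regions, against 38.3% in the control. The gain was then 13.7% at EPOP-bound and 1.46% at EPOP-free regions. The width ratio at kept peaks was 0.32 with lists of equal length. This setting drops weak peaks and leaves the edges of the others unchanged, so it cannot show how depth bears on width.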

How the data were processed

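ChIP-seq peak lists of 18 samples were used, of which 2 are Jarid2 lists; the 2 lists upon Elongin B knock-down and the 10 samples without a list were not used here. The submitters' processing notes name Bowtie and the build mm9, with no version. Which program called the peaks is not stated; the deposited names of the peaks carry MACS. Each list gives chromosome, start, end and a score per peak. The score, in the fifth column as deposited, has no stated scale and was used to rank, filter and describe peaks within a list. A single alternative sets the control list's median score as the minimum in both lists of a target, which assumes that the scores share a scale. No list is named as pooled, and depth per sample is unknown.

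Coordinates are mm9, counted from 1. Control regions of Suz12, EPOP, Elongin B and H3K4me3 were merged peaks that held a peak of both control lists, and H3K27me3 had 1 control list. Width ratios divide the summed width of overlapping knock-down peaks by the control width, and a knock-down peak that spanned several control peaks was counted in full for each. Regions were named by a rule: the 5 kept, missing and new peaks with the highest score, and the 5 kept peaks of at least median control width with the largest and with the smallest width ratio. No test was made, since each condition has 1 list. The members, lists and comparisons were chosen with earlier results of these data known. Lists of genes could not be placed on mm9 and were not used, and no sequence is shown. Python 3.11.15, NumPy 2.4.6, pandas 2.3.3, SciPy 1.17.1 and Matplotlib 3.10.9 were used. Overlaps were checked against bedtools 2.31.1 in 324 pairs of lists, with the same count in all 324, and the width and overlap steps were tested on simulated data.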

Additional observations from a re-analysis of the deposited data

How the results depend on the processing

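No paired analysis was possible because each Jarid2 condition has 1 list, and for the same reason no Jarid2 replicate could be left out. The ratio of peak numbers and the width ratio changed direction under no setting. The other values are shares, for which no direction was defined. With only the peaks that reached the median score of their target's control list, the ratio of Jarid2 peak numbers was 1.62, the kept share 99.1%, the new share 41.4% and the median log2 width ratio 0.23. Jarid2 was then at 63.7% of the Suz12 regions upon knock-down, and the gain was 45.6% at EPOP-bound and 11.7% at EPOP-free ones. These values hold only if scores share a scale between the lists of a target, which was not tested. With Jarid2 lists of equal length the ratio of numbers is fixed by construction and has no value. The kept share was then 89.2%, the new share 15.6%, the share of Suz12 regions with Jarid2 upon knock-down 41.7%, and the gain 13.7% and 1.46%. The width ratio was 0.36 when a gap of up to 1000 bp was allowed and 0.28 when peaks that close were merged first.

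Leaving out either Suz12 control list gave Jarid2 at 31.2% to 31.9% of the Suz12 regions in the control and at 46.3% to 46.8% upon knock-down. The gain was 34.3% to 36.2% at EPOP-bound regions and 3.07% to 3.57% at EPOP-free ones, the higher of the former without replicate 1 and of the latter without replicate 2. With Suz12 peaks of either list, these values were 26.5%, 38.9%, 32.5% and 2.32%. Leaving out either EPOP control list gave gains of 31.6% to 36.4% and of 5.80% to 5.83%, and EPOP peaks of either list gave 31.1% and 2.17%. The weighted gain of EPOP-bound regions, 10.5%, was 8.87% and 20.5% with 2 other ways of matching that were chosen after seeing the data. The cause of these shifts was not tested. The other 37 values stayed within their counting intervals.

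Depth was unknown for all lists, so how far it sets the number and width of Jarid2 peaks was not tested. The lists hold no peak with a score under 50, so weaker Jarid2 signal was not analysed here.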

Other observations

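The X chromosome had the largest relative increase in Jarid2 peaks of the 21 sequences in the lists, from 55 in the control to 88 upon EPOP knock-down, 1.6 times, with 39 new peaks (44.3% of its knock-down peaks). The 19 autosomes ranged from 1.27 times on chromosome 10 (117 and 149 peaks) to 1.54 times on chromosome 15 (109 and 168 peaks). The median log2 width ratio at kept peaks was 0.40 on the X chromosome and ran from 0.25 on chromosome 17 to 0.45 on chromosome 18 among autosomes. Every autosome thus had more peaks and wider kept peaks upon knock-down.

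Between positions 2999851 and 3038539, at the start of the assembled sequence of chromosome 9, there were 11 Jarid2 peaks in the control and 10 upon knock-down, of which 9 control peaks were kept, 2 were missing and 1 knock-down peak was new. That stretch held a peak in 17 of the 18 lists. The mitochondrial sequence held 1 Jarid2 peak in each list, of almost the same width in both, and a peak in 13 of the 18 lists.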
